A study of Danio rerio with 16 samples.

Results

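Posterior neuronal cells are the class of posterior neural cells that the study's authors named among 25 cell classes in single-cell RNA sequencing of zebrafish tails. The members were all cells that carry this class name in the authors' cell table, 14662 of 130661 cells. Of these, 3418 came from DMH1 libraries, 3420 from SU5402 libraries, 4346 from notum-1 libraries and 3478 from WT libraries. Tails were cut off just behind the newest somite of embryos at the 10 to 12 somite stage, pooled and dissociated with papain, and transcripts were counted with molecular identifiers (UMIs) in the 10x Genomics droplet protocol. The DMH1 group had BMP signalling inhibited by DMH1, a small molecule that blocks BMP type I receptor kinases, in 4 pools of 10 tails. The SU5402 group had FGF signalling inhibited by SU5402, a small molecule that blocks FGF receptor kinase activity, in 4 pools of 10 tails. The notum-1 group had Wnt signalling inhibited through notum-1 in 4 pools of 12 tails. Notum is secreted and removes the lipid that Wnt proteins need for activity. The WT group was untreated wild type, in 4 pools of 10 tails. The sources used here give neither the strain, the doses and treatment times nor the way notum-1 was delivered. Nothing in the sources used here limits a treatment to these cells, so a change in them need not have begun in them.

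At this stage the posterior neural plate and neural tube are still being built from tailbud progenitors that can enter neural or mesodermal fates. SoxB1 transcription factors (Sox2, Sox3 and the Sox19 proteins) mark and maintain neural progenitors. FGF and Wnt signals from the tailbud keep progenitors immature and promote posterior hox and cdx expression, retinoic acid from the somites promotes differentiation, BMP signals from the dorsal side and Hedgehog signals from the ventral side set dorsoventral identity, and Notch signalling through her genes restrains neuron formation.

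The replicate was the library. UMI counts were summed over the posterior neuronal cells of each library, and levels are given as CPM, UMI counts scaled to a common total. Sums held 5603567 to 7981776 UMIs in DMH1 libraries, 1246022 to 6670776 in SU5402 libraries, 5179652 to 8086331 in notum-1 libraries and 2918795 to 4994824 in WT libraries. The labels describe separate pools of tails, so p-values measure the spread between pools. Where 4 values of a group are listed, they follow the order DMH0, DMH2, DMH3, DMH4 for DMH1, replicates 1 to 4 for SU5402, and MG1, MG2, DJ1, DJ2 for notum-1 and for WT, which are the authors' library names.

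Several libraries stood apart and touch the results below. Replicates 1 and 2 of SU5402 had the smallest sums, 1246022 and 2649099 UMIs, and median mitochondrial percents of 6.54 and 4.28, against 1.38 to 2.22 in WT. The DMH1 libraries had medians of 3.30 to 4.84 and the notum-1 libraries 1.1 to 1.43. On this measure of RNA quality the DMH1 and SU5402 libraries lay above every WT library. The notum-1 range overlapped that of WT only through WT library MG2, at 1.38. Replicate 4 of SU5402 was closer to the DMH1 libraries than to its own group. Over 5882 genes its Spearman correlation was 0.969 to 0.974 with the 4 DMH1 libraries, and 0.855, 0.885 and 0.936 with SU5402 replicates 1, 2 and 3. Its cells had a median of 8491.5 UMIs, against 6950 to 7916.5 in DMH1 libraries and 2358, 2604 and 3779.5 in those SU5402 replicates. The part of depth in this likeness was not tested. The labels give no batch, so a batch and a treatment cannot be told apart here. Only 23 of 14639 distinct cell barcodes occurred in more than 1 library within the class. Free RNA from other cells was visible. Normalised epidermis marker genes summed to 503 to 819 CPM in DMH1 libraries, 100.03 to 2720 CPM in SU5402 libraries, 112 to 559 CPM in notum-1 libraries and 418 to 1263 CPM in WT libraries. Their level in percent of that over all cells of the same library served as the estimate of free RNA. It was 17.94 to 27.48 in DMH1, 7.90 to 34.12 in SU5402, 12.38 to 22.51 in notum-1 and 27.51 to 37.06 in WT. Every WT library was thus above every DMH1 and notum-1 library. The part of free RNA in falls against WT of genes from other classes was not tested.

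The markers given for the class were checked in WT first. Mean levels over the 4 WT libraries were 681 ± 44.0 CPM for sox19a, 239 ± 28.3 CPM for sox3 and 123 ± 8.15 CPM for sox2 (SD, n = 4). Among 21 classes with at least 30 cells in every WT library, the class ranked second for sox19a and for sox3, below anterior neuronal cells at 692 ± 38.8 and 533 ± 51.9 CPM. It ranked lower for sox2, number 5 of 21, where dorsal neuronal cells had 273 ± 24.2 CPM. The other SoxB1 genes in it stood at 161 ± 25.9 CPM for sox19b, 21.4 ± 4.77 CPM for sox1b and 7.58 ± 1.86 CPM for sox1a. Markers of other lineages were compared with the class, of these 21, where their sum was highest. The Kupffer's vesicle class had too few WT cells to be among them, so its markers were not compared with that class. Summed Kupffer's vesicle, hatching or germ cell markers reached 15.5% of their level in pax2 lateral plate mesoderm, summed neural crest markers 10.4% of their level in dorsal neuronal cells, summed presomitic mesoderm markers reached 9.07% of their level in posterior adaxial cells, summed blood and endothelium markers 0.744% of their level in lmo2 lateral plate mesoderm, and sox10 (neural crest), col9a1a (notochord), pax8 (intermediate mesoderm), sox17 and sox32 (endoderm and Kupffer's vesicle) were under 1 CPM in every library.

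In WT the transcripts that set these cells most apart, by the ratio of their level to the mean of the other classes, were those of olig2, her3, gbx1 and chrd. The class came from clustering on the same genes, so these levels are a description with no test. Olig2, a transcription factor of motor neuron and oligodendrocyte progenitors, stood at 185 ± 27.1 CPM, and the next class, epidermis 2, had 25.9 ± 7.55 CPM. Her3, a Hairy-related repressor that in zebrafish restrains neurogenin expression, had 221 ± 35.4 CPM, against 62.4 ± 17.0 CPM in anterior neuronal cells. The homeobox gene gbx1 had 137 ± 7.78 CPM, against 48.9 ± 6.94 CPM in anterior neuronal cells. Chrd, which encodes the BMP antagonist Chordin, had 534 ± 44.2 CPM, against 232 ± 28.9 CPM in anterior neuronal cells. The dorsal progenitor gene olig3 had 50.2 ± 13.5 CPM and the POU factor gene pou5f3, known for keeping early embryonic cells uncommitted, had 106 ± 10.2 CPM, with 16.0 ± 3.69 CPM in anterior neuronal cells and 69.4 ± 3.15 CPM in differentiated neuronal cells as the next classes. The class was first of 21 classes for all 6 of these genes and also for prdm8, spag6, foxb1b and lmo3. Over 9104 genes the WT profile was most like anterior neuronal cells (Spearman correlation 0.973), then dorsal neuronal cells (0.962) and NMP cells (0.958), NMP being the authors' name for a tailbud class.

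**Figure D1:**
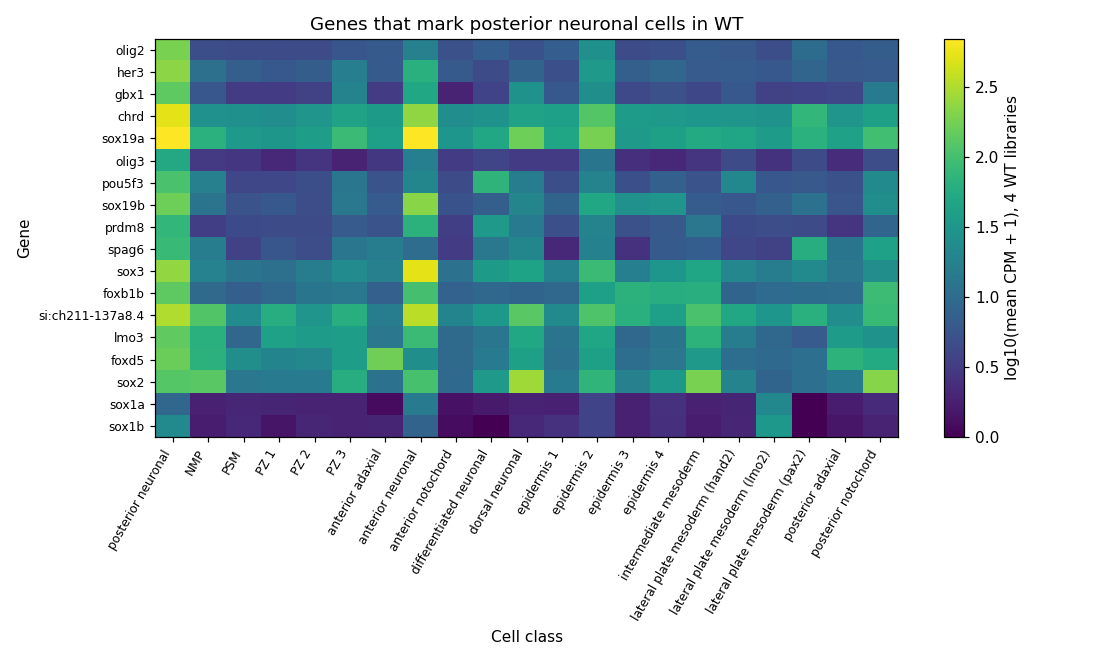
Mean level in WT (log10 of CPM + 1, colour; 4 libraries) of the 15 genes with the largest ratio of posterior neuronal cells to the other classes, with sox2, sox1a and sox1b, in rows, over 21 cell classes in columns. Posterior neuronal cells form the first column, anterior neuronal cells hold similar sox19a and higher sox3, and olig2, her3 and gbx1 are low in the other classes.

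Within the class, single cells were compared after thinning each cell to 2000 UMIs. This left out 2 DMH1 cells, 300 SU5402 cells, 123 notum-1 cells and 29 WT cells. Thinning applies no scaling factor between libraries, unlike the tests below. Those factors (TMM) were 0.73 to 0.80 in notum-1 libraries and 1.00 to 1.04 in WT libraries. They were 1.05 to 1.13 in DMH1 libraries and 1.08 to 1.29 in SU5402 libraries. Without them the median log2 fold change over all genes was -0.44 in notum-1. A lower share in notum-1, here or below, is therefore not by itself a fall of that gene. Nor is a higher share in DMH1 or SU5402 by itself a rise. As a measure of free RNA, the same shares were taken in epidermis 1 cells, which should lack neural genes. Sox19a was detected in 71.6 ± 0.512% of DMH1 cells, 76.2 ± 4.75% of SU5402 cells, 53.5 ± 4.33% of notum-1 cells and 70.0 ± 2.76% of WT cells (SD, n = 4 libraries each), with 1.76%, 4.28%, 2.41% and 9.24% in epidermis 1 of the same groups. Sox2 was detected in 25.0 ± 0.942% of DMH1 cells, 40.0 ± 7.14% of SU5402 cells, 13.8 ± 1.49% of notum-1 cells and 21.1 ± 1.30% of WT cells, with at most 4.25% in epidermis 1. The early neuron gene elavl3 was detected in 15.6 ± 1.86% of DMH1 cells, 10.5 ± 0.672% of SU5402 cells, 8.67 ± 0.132% of notum-1 cells and 8.04 ± 0.506% of WT cells, with at most 2.24% in epidermis 1. So most cells carried a sox19a transcript and a minority an elavl3 transcript, in every group. The mesodermal gene tbx16 was detected in 13.6 ± 1.61% of WT posterior neuronal cells and in 15.5 ± 1.44% of WT epidermis 1 cells, and this share is read as background.

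Each treatment was compared with WT over 10861 genes in 1 edgeR quasi-likelihood fit of all 16 libraries, and a gene was called at a Benjamini-Hochberg adjusted p under 0.05. DMH1 changed 4733 genes (43.6%), SU5402 4611 genes (42.5%) and notum-1 3790 genes (34.9%). The higher and lower genes were 2445 (22.5%) and 2288 (21.1%) in DMH1, 2487 (22.9%) and 2124 (19.6%) in SU5402, and 2023 (18.6%) and 1767 (16.3%) in notum-1. The 4 treated and 4 WT libraries did not overlap for 51.2% of genes with DMH1, 37.6% with SU5402 and 33.1% with notum-1. With so many genes called, a list is of interest only where its share of calls or its direction leaves these levels. The lists were chosen with earlier results of these data known. A share above or under that of all genes is therefore a description and no test. Without scaling beyond the total of the class, the split of higher and lower genes became 2916 and 1810 in DMH1, 3401 and 1449 in SU5402, and 685 and 4542 in notum-1. Over all genes the median log2 fold change was then 0.13, 0.27 and -0.44, where the scaled fit had 0.03, 0.08 and -0.0035. Changes below are therefore relative to the bulk of the genes. Because these are sums over cells, fewer cells with a transcript and less of it per cell cannot be told apart in them. The 3 comparisons share the WT libraries, so their values are given side by side and no overlap between them is tested.

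**Figure D2:**
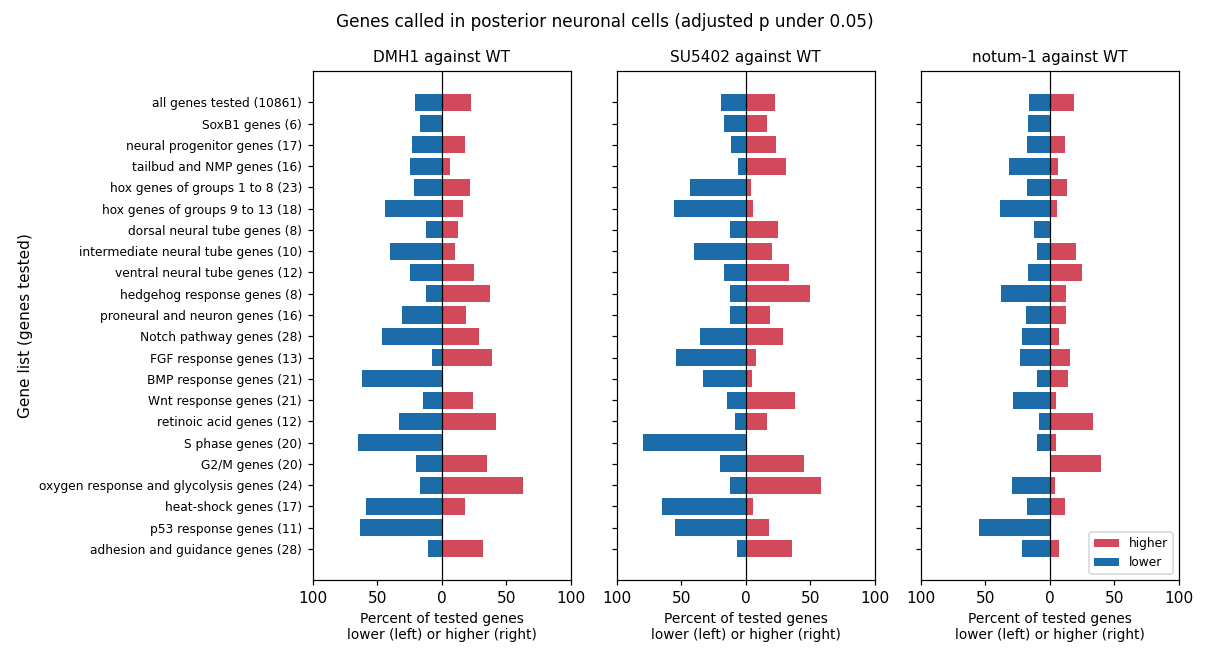
Percent of tested genes called higher (right of 0) and lower (left of 0) at adjusted p under 0.05 for each gene list and for all genes tested, in DMH1, SU5402 and notum-1 against WT. On the lower side, the S phase, heat-shock and p53 response lists stand out in DMH1 and SU5402, and the BMP response list in DMH1. In SU5402 the lower shares of hox groups 9 to 13 (10 of 18) and FGF response (7 of 13) are near that of p53 response. In notum-1 the p53 response list also had 6 of 11 lower and 0 higher. The oxygen response list stands out on the higher side in DMH1 and SU5402. In DMH1, 13 of 21 BMP response genes were lower and 0 higher. The p53 response list there had 7 of 11 lower and 0 higher, and the heat-shock list 10 of 17 lower and 3 higher. In SU5402 the heat-shock list had 11 of 17 lower and 1 higher, and the p53 response list 6 of 11 lower and 2 higher. The lower side in DMH1 was thus not particular to the BMP response list.

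The gene that the notum-1 treatment is named after was checked first. Notum1a stood at 41.5, 35.3, 43.9 and 41.6 CPM in DMH1 libraries, 1.91, 6.17, 33.5 and 84.5 CPM in SU5402 libraries, 382, 781, 293 and 962 CPM in notum-1 libraries and 10.4, 15.7, 12.1 and 13.9 CPM in WT libraries. All 4 notum-1 libraries were above every other library. Its log2 fold change in notum-1 against WT was 5.54 (SE 0.79, edgeR adjusted p = 0.000344). The counts do not separate transcripts that were supplied from those of the embryo's own gene.

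Among the SoxB1 genes, sox2 rose in SU5402 and sox19b fell in all 3 treatments. Sox2 was 133, 147, 149 and 148 CPM in DMH1 libraries, 266, 251, 294 and 178 CPM in SU5402 libraries, 119, 114, 104 and 87.5 CPM in notum-1 libraries and 125, 129.7, 111 and 117 CPM in WT libraries. Every SU5402 library was above every WT library, and the notum-1 and WT ranges overlapped. Sox2 rose by 1.04 on the log2 scale in SU5402 (SE 0.14, edgeR adjusted p = 1.07e-05), and its difference in DMH1 was 0.26 (adjusted p = 0.134). Sox19b, a maternally and zygotically expressed SoxB1 gene, was 60.4, 66.8, 52.1 and 61.4 CPM in DMH1 libraries, 129, 148, 62.9 and 64.9 CPM in SU5402 libraries, 80.7, 94.0, 86.0 and 75.1 CPM in notum-1 libraries and 134, 197, 157 and 145 CPM in WT libraries. It fell in all 3 treatments, its log2 fold change being -1.39 in DMH1 (SE 0.22), -0.66 in SU5402 (SE 0.22, adjusted p = 0.022, overlapping WT) and -0.91 in notum-1 (SE 0.22). The call in SU5402 was lost without SU5402 replicate 3 or 4 or WT MG2 (-0.56 to -0.49). Of the 6 SoxB1 genes, sox19b alone was called in DMH1 and in notum-1, and sox2 and sox19b in SU5402, shares under those of all genes. Sox3 averaged 246 ± 27.6 CPM in DMH1, 289.7 ± 65.2 CPM in SU5402, 292 ± 75.6 CPM in notum-1 and 235 ± 27.5 CPM in WT, and sox19a 648 ± 23.0, 712 ± 55.9, 549 ± 55.1 and 669 ± 40.5 CPM in the same order. Neither passed the test in any comparison.

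Other neural progenitor genes moved both ways. The list has 17 tested genes, of which 3 rose and 4 fell in DMH1, 4 rose and 2 fell in SU5402, and 2 rose and 3 fell in notum-1. These are 7, 6 and 5 called genes of 17, shares no higher than those of all genes. Nova2, a neuronal RNA-binding splicing regulator, averaged 469.7 ± 45.2 CPM in DMH1, 464 ± 49.5 CPM in SU5402, 149 ± 32.4 CPM in notum-1 and 183 ± 24.1 CPM in WT. It rose by 1.36 (SE 0.15) in DMH1 and 1.35 (SE 0.15) in SU5402 on the log2 scale (edgeR adjusted p = 1.46e-06 and 1.32e-06), with no overlap with WT. Cdh2, the neural cadherin, rose by 0.44 in DMH1 and 0.75 in SU5402. Fabp7a, a fatty acid binding protein gene of radial glia, fell by 1.54 in DMH1 and by 1.90 in SU5402 (WT level 6.77 ± 0.861 CPM). In notum-1, zic2a fell by 0.99 and zic5 fell by 1.27, and these zinc finger genes act in dorsal neural plate and neural crest.

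Of the tailbud genes, pou5f3 was 187, 196, 209 and 230.1 CPM in DMH1 libraries, 211, 200.3, 259.5 and 239.8 CPM in SU5402 libraries, 90.01, 63.8, 79.7 and 96.9 CPM in notum-1 libraries and 96.6, 120.1, 104 and 95.1 CPM in WT libraries. The DMH1 and SU5402 libraries all stood above WT, with log2 fold changes of 0.99 and 1.14 (SE 0.14 each, edgeR adjusted p = 1.45e-05 and 2.97e-06). After thinning, pou5f3 was detected in 33.1 ± 2.86% of DMH1 cells, 37.4 ± 1.30% of SU5402 cells, 11.2 ± 1.44% of notum-1 cells and 17.5 ± 1.13% of WT cells. Cdx4, which encodes a caudal factor that activates posterior hox genes, was 1969, 1737, 1817 and 1985 CPM in DMH1 libraries, 1067, 1301, 844 and 1124 CPM in SU5402 libraries, 2445, 2978, 2548 and 4051 CPM in notum-1 libraries and 2776, 2783, 2766 and 3043 CPM in WT libraries. It fell by 0.60 in DMH1 and by 1.39 in SU5402 on the log2 scale, and in notum-1 it differed by 0.08 (SE 0.16, adjusted p = 0.725). Sall4, a zinc finger gene of progenitors, rose by 1.203 in SU5402 and 1.19 in notum-1, with ranges that overlapped WT.

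In notum-1, 6 of 16 tested tailbud genes were called, a share near the 34.9% of all genes. Tbxta (Brachyury), tbx16, sp5a, fgf3 and fgf4 fell and sall4 rose. Tbxta was 95.9, 79.5, 91.1 and 84.4 CPM in DMH1 libraries, 129, 104, 178 and 99.1 CPM in SU5402 libraries, 82.2, 68.2, 53.6 and 44.7 CPM in notum-1 libraries and 154, 145, 137 and 143 CPM in WT libraries. It fell by 1.22 in notum-1 and by 0.72 in DMH1 on the log2 scale (SE 0.18 each, edgeR adjusted p = 8.9e-05 and 0.00302). Fgf4 fell by 1.84 and fgf3 by 1.09 in notum-1 (WT levels 7.81 ± 1.79 and 7.45 ± 2.11 CPM), with fgf3 ranges that overlapped. Presomitic mesoderm markers, of which tbx16 itself is a member, moved in the same direction. All 8 of them fell in notum-1, 5 fell in DMH1 and 2 fell in SU5402, and none rose. The called share in SU5402 was under that of all genes, and in DMH1 and notum-1 it was above. Their summed level was 259 to 371 CPM in DMH1 libraries, 204 to 648 CPM in SU5402 libraries, 43.6 to 232 CPM in notum-1 libraries and 556 to 727 CPM in WT libraries. Their part in the fall of tbxta, tbx16, fgf3 and fgf4 was not tested. Once estimated free RNA was removed, no WT library had a tbx16 UMI left, so no direction is drawn from it, and its call was also lost without notum-1 DJ1 (-1.35). Tbxta was detected after thinning in 7.34 ± 1.74% of notum-1 cells and 20.5 ± 1.38% of WT cells, with 2.31% and 8.86% in epidermis 1 of the same groups.

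Hox genes, which encode position along the body axis, showed lower posterior transcripts in each treatment. Of 18 tested genes of groups 9 to 13, 3 rose and 8 fell in DMH1, 1 rose and 10 fell in SU5402, and 1 rose and 7 fell in notum-1. The median log2 fold changes were -0.30, -0.62 and -0.38. The called share was above that of all genes in DMH1 and SU5402 and a little above it in notum-1. Hoxd10a was 233, 229.7, 229.9 and 228 CPM in DMH1 libraries, 149, 196, 225 and 219 CPM in SU5402 libraries, 314, 224, 340.0 and 206 CPM in notum-1 libraries and 538, 608, 560.0 and 608 CPM in WT libraries. No treated library reached the WT range. It fell by 1.33 in DMH1, by 1.55 in SU5402 and by 1.09 in notum-1 on the log2 scale (edgeR adjusted p = 2.27e-06, 4.11e-07 and 4.8e-05). Hoxd11a fell by 1.32, 1.07 and 1.08 in the same order, where WT had 201 ± 5.93 CPM. Hoxa11b fell in all 3 treatments by 0.66, 0.67 and 0.34. Hoxb9a was the exception that was higher in all 3, by 0.42 in DMH1 and by 0.32 in both SU5402 and notum-1, and its rise in notum-1 overlapped WT and became -0.12 without scaling. The hoxb9a calls in SU5402 and notum-1 were lost without most of the single libraries, WT MG1 among them, at 0.28 to 0.33 and 0.20 to 0.33, and the hoxa11b call in notum-1 without WT DJ2, WT MG1, notum-1 MG1 or notum-1 MG2, at -0.33 to -0.28.

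Of 23 tested hox genes of groups 1 to 8, 5 rose and 5 fell in DMH1, 1 rose and 10 fell in SU5402, and 3 rose and 4 fell in notum-1. In DMH1 and notum-1 the called shares were no higher than those of all genes, and in SU5402 the share was a little above. Hoxa3a was 66.5, 80.4, 101 and 96.5 CPM in DMH1 libraries, 89.0, 91.6, 87.0 and 114 CPM in SU5402 libraries, 59.4, 33.7, 58.7 and 38.6 CPM in notum-1 libraries and 24.8, 23.3, 27.3 and 21.6 CPM in WT libraries. It rose in every treatment without overlap, by 1.83, 1.98 and 0.98 on the log2 scale (edgeR adjusted p = 6.75e-07, 2.06e-07 and 0.000713). Hoxb5a fell in every treatment, by 1.097, 1.09 and 0.70. Hoxb7a was 692, 613, 570.3 and 625 CPM in DMH1 libraries, 310.1, 349, 375 and 368 CPM in SU5402 libraries, 594, 589.7, 664 and 1117 CPM in notum-1 libraries and 528, 546, 564 and 696 CPM in WT libraries. It fell in SU5402 by 0.74 (SE 0.17, adjusted p = 0.00195) and did not pass the test in the other two. Hoxc8a and hoxb10a were also called in SU5402 and in no other treatment, at -1.33 and -0.52, and hoxc8a was not called without SU5402 replicates 1 and 2 (-1.02).

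**Figure D3:**
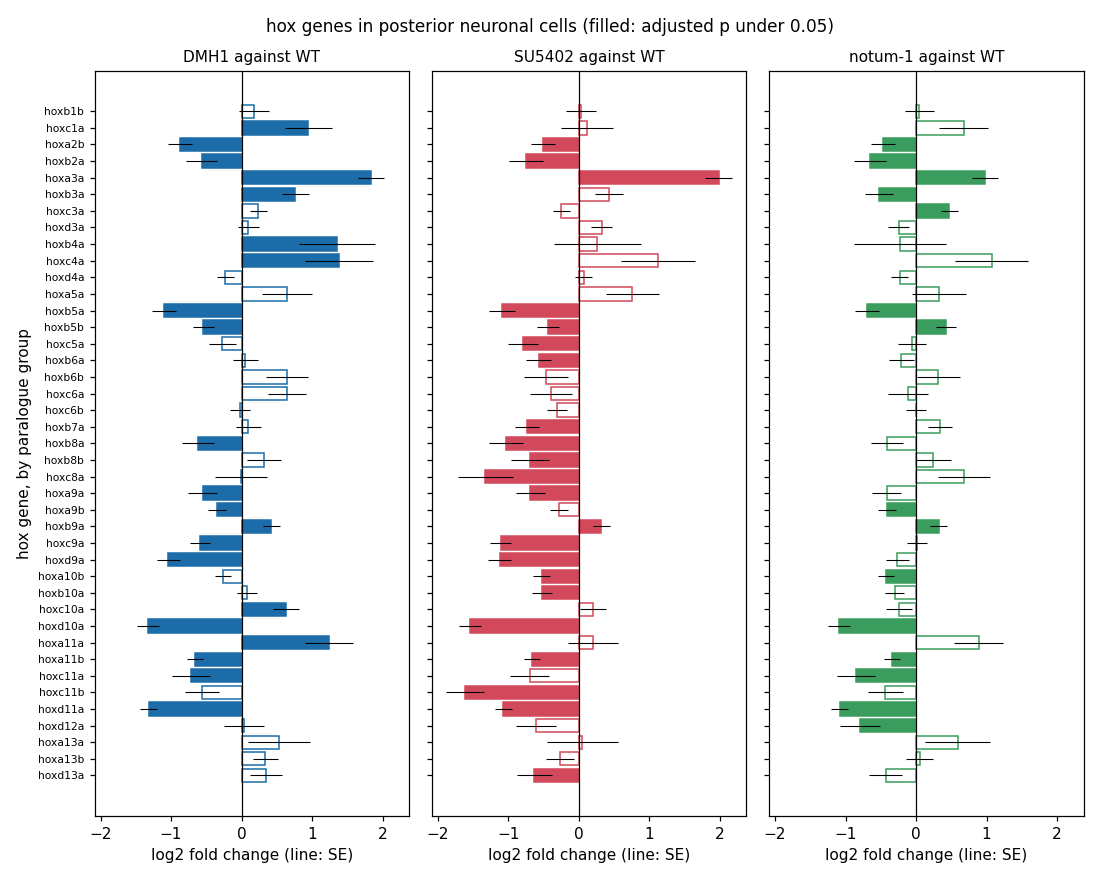
Log2 fold change against WT (bars, with SE as lines) of the hox genes tested, ordered by paralogue group along the vertical axis, in DMH1, SU5402 and notum-1 panels. Filled bars passed adjusted p under 0.05. Hoxa3a is higher and hoxd10a and hoxd11a are lower in all 3 panels.

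Among dorsoventral identity genes, those of the intermediate domain are given first. Dbx1a, a homeobox gene of intermediate progenitors, was 1.34, 1.53, 0.691 and 2.14 CPM in DMH1 libraries, 3.18, 3.52, 1.15 and 2.02 CPM in SU5402 libraries, 12.8, 15.4, 11.3 and 12.996 CPM in notum-1 libraries and 17.95, 21.9, 27.3 and 21.1 CPM in WT libraries. All treated libraries were under the WT range. It fell by 3.92 (SE 0.28) in DMH1, by 3.31 (SE 0.29) in SU5402 and by 0.75 (SE 0.23) in notum-1 on the log2 scale (edgeR adjusted p = 2.34e-08, 1.07e-07 and 0.0172). The dbx1a call in notum-1 was lost without WT DJ1 (-0.63). Pax6b, which is broad in the intermediate tube, rose in all 3 treatments by 1.45, 1.25 and 0.71 (WT level 23.6 ± 4.42 CPM). In this list of 10 tested genes, 1 rose and 4 fell in DMH1, 2 rose and 4 fell in SU5402, and 2 rose and 1 fell in notum-1. The called share was a little above that of all genes in DMH1, above it in SU5402 and under it in notum-1.

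Among 8 tested dorsal genes, 1 rose and 1 fell in DMH1, 2 rose and 1 fell in SU5402, and 1 fell in notum-1. These called shares were under those of all genes in each treatment. Olig4, a dorsal progenitor gene, rose by 1.05 in both DMH1 and SU5402 (SE 0.16 each), where DMH1 averaged 202 ± 25.1 CPM and SU5402 averaged 201 ± 48.6 CPM, while WT averaged 97.7 ± 4.04 CPM. Olig3 was 77.5, 86.3, 86.7 and 82.3 CPM in SU5402 libraries and 37.1, 58.5, 39.0 and 62.6 CPM in WT libraries, a rise of 0.76 (SE 0.17, edgeR adjusted p = 0.00154).

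Ventral genes, 12 of them tested, had 3 higher and 3 lower in DMH1, 4 higher and 2 lower in SU5402, and 3 higher and 2 lower in notum-1. The called shares were a little above those of all genes. Olig2, the transcript that most marked the class in WT, was 132, 116, 124 and 157 CPM in DMH1 libraries, 126, 128, 77.0 and 109 CPM in SU5402 libraries, 174, 147, 211 and 177 CPM in notum-1 libraries and 149.8, 192, 173 and 209.9 CPM in WT libraries. It fell by 0.45 in DMH1, where 1 library overlapped WT, where cells within limits common to all libraries gave 0.25 and where the call was lost without DMH0, DMH2, DMH3, WT DJ2 or WT MG2 (-0.45 to -0.37), and by 0.73 in SU5402, where none did (SE 0.16 each, edgeR adjusted p = 0.0267 and 0.00124). Nkx2.9, a target of Hedgehog signalling next to the floor plate, fell by 1.67 in DMH1 and by 2.32 in SU5402. Shhb, a Hedgehog ligand gene of the floor plate, stood at 12.3, 18.8, 15.7 and 19.3 CPM in notum-1 libraries and 2.13, 3.08, 2.69 and 2.71 CPM in WT libraries. It rose by 2.64 in notum-1 (SE 0.29, adjusted p = 5.28e-06) and by 0.99 in DMH1. The 8 tested Hedgehog response genes had 3 higher and 1 lower in DMH1, 4 higher and 1 lower in SU5402, and 1 higher and 3 lower in notum-1. Their called share was a little above that of all genes in DMH1 and above it in SU5402 and notum-1, in a list of only 8.

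Of the 15 genes that most marked the class in WT, gbx1 changed most. It was 52.3, 38.2, 49.98 and 41.6 CPM in DMH1 libraries, 17.8, 29.7, 7.88 and 7.83 CPM in SU5402 libraries, 59.8, 74.2, 68.1 and 57.0 CPM in notum-1 libraries and 125, 132, 142 and 139 CPM in WT libraries. No treated library came near WT. The log2 fold changes were -1.56 (SE 0.27), -3.19 (SE 0.31) and -1.06 (SE 0.27), with edgeR adjusted p = 0.000261, 8.63e-07 and 0.00696. Her3 and lmo3 also fell in all 3 treatments, lmo3 by 1.12, 0.76 and 0.47, but without WT DJ2 their calls in notum-1 were lost, at -0.33 for her3 and -0.37 for lmo3. Chrd rose in DMH1 by 0.69 and in notum-1 by 0.56, and averaged 848 ± 44.3 CPM in DMH1, 466 ± 27.0 CPM in SU5402, 771 ± 111 CPM in notum-1 and 524 ± 44.1 CPM in WT. Foxd5 fell by 0.95 and foxb1b rose by 0.76 in SU5402.

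Within the Notch pathway, several receptor and ligand genes rose in DMH1 and SU5402 and most her genes that were called fell. Of 28 tested genes, 8 rose and 13 fell in DMH1, 8 rose and 10 fell in SU5402, and 2 rose and 6 fell in notum-1. The called share was above that of all genes in DMH1 and SU5402 and under it in notum-1. The receptor genes notch1a and notch3 rose by 0.68 and 0.90 in DMH1 and by 0.89 and 0.94 in SU5402. Notch3 was 262, 308, 307 and 278 CPM in DMH1 libraries, 248, 261, 367 and 302 CPM in SU5402 libraries, 161, 152, 159.6 and 104 CPM in notum-1 libraries and 143, 145, 163 and 166 CPM in WT libraries. Both inhibitor groups stood above WT without overlap (edgeR adjusted p = 7.8e-05 and 5.09e-05). The ligand genes dla, jag1b and jag2b also rose in DMH1 and SU5402, dla by 0.64 and 0.78. The ligand gene dlc was called lower in DMH1 and notum-1. Its call in DMH1 was lost without any 1 of the DMH1 or WT libraries (-1.19 to -1.11). No WT library had a dlc UMI left once estimated free RNA was removed, so no direction is drawn from it. In SU5402 the calls were lost for jag1b without SU5402 replicate 1 or 3 or WT MG1 or MG2 (0.61 to 0.78) and for jag2b without WT MG1 (0.59). The receptor gene notch2 went the other way and fell in DMH1 and notum-1. Nrarpb, a feedback inhibitor that Notch signalling induces, rose in all 3 treatments by 1.31, 1.21 and 0.95.

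The her genes encode repressors, many of which act downstream of Notch. The her4 genes are near-identical copies between which reads may be split, so their 5 copies were summed. The sum was 675, 614, 459.5 and 849.5 CPM in DMH1 libraries, 198, 296, 674 and 903 CPM in SU5402 libraries, 2249, 693, 3625 and 1481 CPM in notum-1 libraries and 3778, 4461, 4302 and 4292 CPM in WT libraries. All treated libraries were below WT, and the notum-1 libraries spread widely. The called single copies all fell. The 2 her15.1 copies summed to 702 ± 125 CPM in DMH1, 474 ± 243 CPM in SU5402, 972 ± 406 CPM in notum-1 and 2189.9 ± 337 CPM in WT. Her2 was 174, 178, 184 and 224 CPM in DMH1 libraries, 115, 141, 169 and 169 CPM in SU5402 libraries, 197, 126, 235 and 147 CPM in notum-1 libraries and 323, 361, 401 and 475 CPM in WT libraries. It fell in all 3 treatments by 1.04, 1.39 and 1.14 on the log2 scale (SE 0.18 each, edgeR adjusted p = 0.000132, 6.76e-06 and 0.00013). Her12 fell by 1.91 in DMH1 and by 2.40 in SU5402, and her9 by 0.89 and by 0.97.

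Hes6 and her6 changed in some treatments. Hes6, a factor that in zebrafish acts in both neurogenesis and the segmentation clock, was 683, 581, 619 and 675 CPM in DMH1 libraries, 271, 259.6, 290.2 and 273 CPM in SU5402 libraries, 524, 613, 478 and 1067 CPM in notum-1 libraries and 844, 698, 810.1 and 723 CPM in WT libraries. It fell by 1.49 in SU5402 (SE 0.19, edgeR adjusted p = 4.71e-06), and differed by -0.26 in DMH1 (adjusted p = 0.249). Her6 was 17.2, 18.4, 17.6 and 22.0 CPM in DMH1 libraries, 45.8, 31.1, 36.3 and 38.7 CPM in SU5402 libraries, 30.9, 42.9, 30.5 and 57.7 CPM in notum-1 libraries and 35.0, 29.1, 40.1 and 40.6 CPM in WT libraries. It fell by 0.95 in DMH1 (SE 0.19, adjusted p = 0.000518) and was not called in the other two. With estimated free RNA removed, all 4 WT libraries and 3 of 4 DMH1 libraries were at 0 for her6, so this direction depends on that choice.

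**Figure D4:**
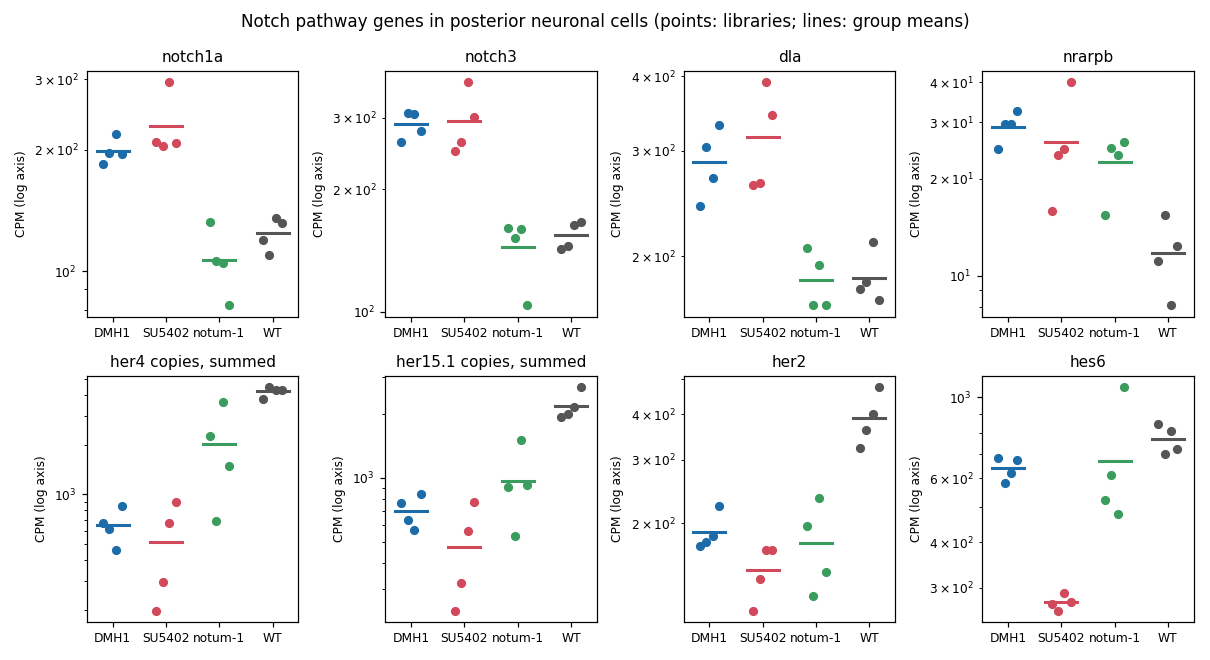
Level by library (CPM, log axis) of 8 Notch pathway genes or summed copies in DMH1, SU5402, notum-1 and WT posterior neuronal cells. Points are libraries and lines are group means. The receptor genes notch1a and notch3 are higher in DMH1 and SU5402, and the summed her4 and her15.1 copies and her2 are lower in all 3 treatments.

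Genes of neuron formation moved both ways. Of 16 tested proneural and neuron genes, 3 rose and 5 fell in DMH1, 3 rose and 2 fell in SU5402, and 2 rose and 3 fell in notum-1. In SU5402 and notum-1 the called shares were under those of all genes, and in DMH1 a little above. Elavl3 was 107, 109, 136 and 109.9 CPM in DMH1 libraries, 52.8, 67.8, 83.6 and 85.3 CPM in SU5402 libraries, 95.7, 65.8, 73.7 and 76.6 CPM in notum-1 libraries and 56.2, 49.3, 63.9 and 45.8 CPM in WT libraries. It rose in DMH1 by 1.11, in SU5402 by 0.45 and in notum-1 by 0.54 (SE 0.16 each, edgeR adjusted p = 2.28e-05, 0.0292 and 0.0143), with 1 overlapping library in SU5402. The elavl3 call was lost in SU5402 without SU5402 replicate 3 or 4 or WT DJ2, MG1 or MG2 (0.36 to 0.46), and in notum-1 without WT DJ2 or notum-1 MG1 (0.42 to 0.46). Insm1a, a zinc finger gene of newborn neurons, fell in all 3 treatments (WT level 7.47 ± 1.66 CPM), although its call in notum-1 was lost without WT DJ2, WT MG1, notum-1 MG2 or notum-1 DJ2 (-1.02 to -0.89). Stmn1b, a microtubule regulator of neurons, had log2 fold changes of -2.02, -1.198 and -1.75, all called (WT level 6.73 ± 1.58 CPM). The share of cells with a stmn1b UMI was 0.368 ± 0.0835% in DMH1, 0.708 ± 0.297% in SU5402, 0.287 ± 0.109% in notum-1 and 1.29 ± 0.386% in WT, and 1.56 ± 0.695% in WT epidermis 1, so it did not exceed background in WT.

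Response genes of the 3 targeted pathways were read in every treatment. BMP response genes were lower in DMH1. Of 21 tested, 0 rose and 13 fell in DMH1, with a median log2 fold change of -1.34 against 0.03 over all genes, while 1 rose and 7 fell in SU5402 and 3 rose and 2 fell in notum-1. The called share was above that of all genes in DMH1 and under it in SU5402 and notum-1. Id3, an inhibitor of basic helix-loop-helix factors, was 3.63, 5.95, 2.53 and 4.51 CPM in DMH1 libraries, 19.1, 16.4, 30.9 and 25.4 CPM in SU5402 libraries, 10.1, 21.9, 5.22 and 18.2 CPM in notum-1 libraries and 27.2, 18.5, 30.3 and 30.5 CPM in WT libraries. All DMH1 libraries lay under every SU5402 and WT library. It fell by 2.71 in DMH1 (SE 0.37, edgeR adjusted p = 2.51e-05). The homeobox genes msx2b and vent fell by 3.01 and by 2.02 in DMH1, msx2b to 0.987 ± 0.445 CPM, against 7.97 ± 2.61 CPM in WT. Szl, which encodes the secreted BMP feedback antagonist Sizzled, fell in DMH1 and rose in SU5402. It was 1.07, 0.510, 0.345 and 0.676 CPM in DMH1 libraries, 80.7, 59.6, 85.5 and 27.9 CPM in SU5402 libraries, 14.0, 3.85, 2.70 and 4.205 CPM in notum-1 libraries and 3.07, 2.74, 13.1 and 5.60 CPM in WT libraries. It fell by 3.15 in DMH1 (SE 0.79, adjusted p = 0.00541) and rose by 3.39 in SU5402 (SE 0.54, adjusted p = 0.00019). Id2b fell both in DMH1, by 1.83, and in SU5402, by 1.93, with no library overlapping WT.

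FGF response genes, 13 of them tested, had 7 lower and 1 higher in SU5402, 5 higher and 1 lower in DMH1, and 2 higher and 3 lower in notum-1. The called share was above that of all genes in SU5402 and near it in DMH1 and notum-1. Dusp6, a phosphatase gene induced by FGF signalling, was 197, 190.0, 226 and 162 CPM in DMH1 libraries, 85.2, 100.1, 42.4 and 36.0 CPM in SU5402 libraries, 172, 189, 153 and 94.6 CPM in notum-1 libraries and 147, 134, 138 and 126 CPM in WT libraries. The SU5402 libraries were below every DMH1 and WT library, and it fell by 1.08 (SE 0.27, edgeR adjusted p = 0.00426). The feedback inhibitor gene spry4 was 256, 223, 249.8 and 193 CPM in DMH1 libraries, 109, 109, 88.8 and 62.9 CPM in SU5402 libraries, 112, 103, 99.3 and 81.0 CPM in notum-1 libraries and 136, 125, 151 and 135 CPM in WT libraries. It fell by 0.58 in SU5402 and by 0.47 in notum-1 and rose by 0.75 in DMH1. The spry4 call in notum-1 was lost without WT DJ1, DJ2 or MG1 or notum-1 DJ2 (-0.47 to -0.38). Ier2a, an immediate early gene, fell by 2.25 in SU5402 to 15.9 ± 10.1 CPM, against 71.7 ± 7.07 CPM in WT. Etv5a, an ETS factor gene known as an FGF target, went the other way and rose by 1.18 in SU5402 and by 0.57 in DMH1.

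Wnt response genes, 21 of them tested, had 5 higher and 3 lower in DMH1, 8 higher and 3 lower in SU5402, and 1 higher and 6 lower in notum-1, where the 7 called genes were no larger a share than that of all genes. The called share was under that of all genes in DMH1 and above it in SU5402. Nkd1, a feedback inhibitor gene of the pathway, was 45.9, 43.5, 51.4 and 52.4 CPM in DMH1 libraries, 57.8, 67.5, 61.7 and 56.6 CPM in SU5402 libraries, 35.8, 31.8, 29.2 and 25.4 CPM in notum-1 libraries and 74.9, 66.7, 74.0 and 80.2 CPM in WT libraries. The notum-1 libraries were the lowest, and it fell by 1.28 in notum-1 (SE 0.13, edgeR adjusted p = 1.82e-06) and by 0.61 in DMH1. Axin2, another feedback inhibitor gene, fell by 0.73 in notum-1 and rose by 0.59 in DMH1 and 0.86 in SU5402. It averaged 71.9 ± 5.52 CPM in DMH1, 86.4 ± 16.2 CPM in SU5402, 28.8 ± 6.68 CPM in notum-1 and 47.8 ± 8.59 CPM in WT. Tcf7l1a, lef1 and sp5a also fell in notum-1, by 0.89, 0.70 and 0.46, although tcf7l1a came to 0.22 once estimated free RNA was removed. Lef1 was not called without any 1 of the 4 WT libraries, notum-1 MG1 or notum-1 DJ1 (-0.73 to -0.43), and sp5a not without notum-1 DJ1 (-0.36). Dkk1b, a secreted Wnt antagonist gene, was 13.8, 14.8, 13.2 and 14.4 CPM in DMH1 libraries, 6.99, 7.63, 6.402 and 3.91 CPM in SU5402 libraries, 36.3, 41.7, 44.3 and 46.6 CPM in notum-1 libraries and 67.3, 40.4, 43.4 and 39.0 CPM in WT libraries. It fell by 1.76 in DMH1 and by 3.00 in SU5402 and in notum-1 differed by -0.17 (SE 0.17, adjusted p = 0.458). The cell cycle gene ccnd1 rose by 0.84 in DMH1 and 0.56 in SU5402.

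**Figure D5:**
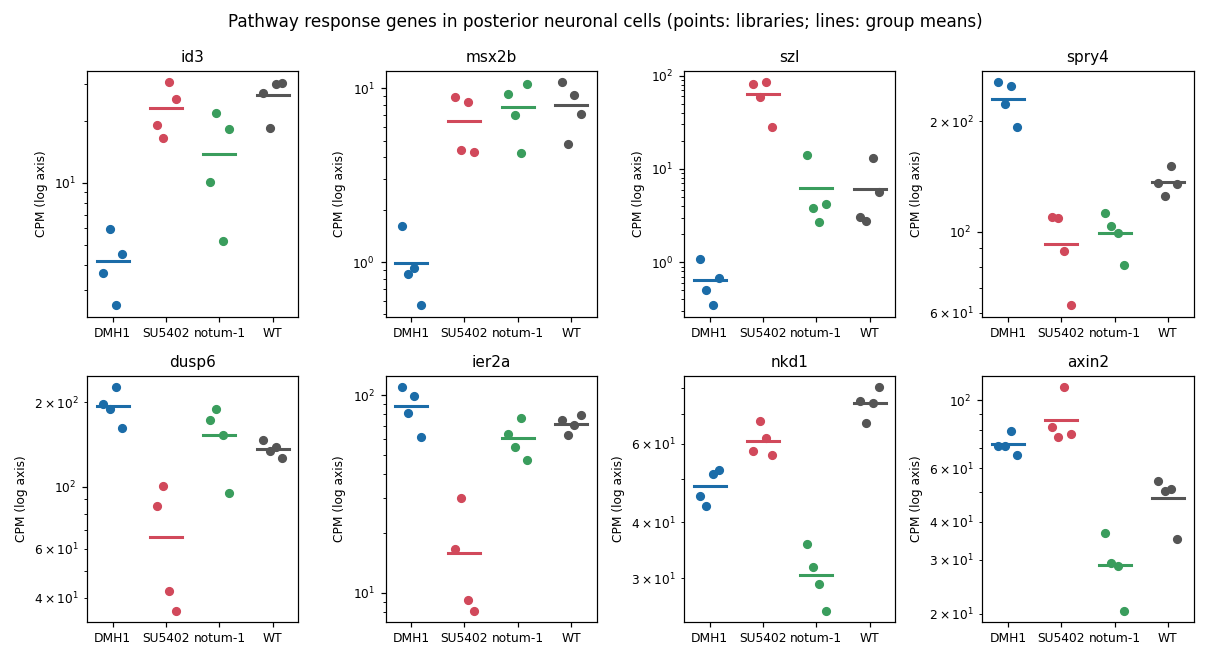
Level by library (CPM, log axis) of 8 pathway response genes in DMH1, SU5402, notum-1 and WT posterior neuronal cells. Points are libraries and lines are group means. Id3 and msx2b are lowest in DMH1, spry4, dusp6 and ier2a lowest in SU5402, and nkd1 and axin2 lowest in notum-1, while szl is low in DMH1 and high in SU5402.

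Genes of retinoic acid signalling had 5 higher and 4 lower of 12 tested in DMH1, 2 higher and 1 lower in SU5402, and 4 higher and 1 lower in notum-1. The called share was above that of all genes in DMH1, under it in SU5402 and a little above it in notum-1. In notum-1 the 2 binding protein genes crabp2a and crabp2b parted. Crabp2a was 94.7, 90.1, 85.3 and 63.8 CPM in notum-1 libraries and 183, 181, 176 and 149 CPM in WT libraries, and crabp2b was 32.1, 39.5, 50.1 and 45.9 CPM in notum-1 libraries and 15.6, 16.4, 22.5 and 15.08 CPM in WT libraries. The first fell by 1.04 and the second rose by 1.28 (SE 0.17 and 0.18, edgeR adjusted p = 0.000182 and 4.28e-05). The receptor gene rarga rose by 1.12 in DMH1 and 1.32 in notum-1.

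S phase genes were lower in both inhibitor groups. Of 20 S phase genes tested, 0 rose and 13 fell in DMH1, 0 rose and 16 fell in SU5402, and 1 rose and 2 fell in notum-1. The medians were -0.57, -0.87 and -0.03. The called share was above that of all genes in DMH1 and SU5402 and under it in notum-1. Pcna, the replication clamp gene, was 924, 855, 819.6 and 922 CPM in DMH1 libraries, 608, 765, 548 and 818 CPM in SU5402 libraries, 943, 1220.0, 1049 and 1718 CPM in notum-1 libraries and 1474, 1365, 1331 and 1454 CPM in WT libraries. It fell by 0.68 in DMH1 and by 1.04 in SU5402 (SE 0.17 each, edgeR adjusted p = 0.00301 and 7.05e-05), without overlap. Gins2, a helicase component gene, fell by 1.06 and by 1.68. The 20 tested G2/M genes had 7 higher and 4 lower in DMH1, 9 higher and 4 lower in SU5402, and 8 higher and 0 lower in notum-1. Their called share was above that of all genes in DMH1 and SU5402 and a little above it in notum-1. Cenpf, a kinetochore gene, was 108, 109.9, 83.4 and 88.8 CPM in DMH1 libraries, 66.7, 67.2, 90.3 and 117 CPM in SU5402 libraries, 63.0, 62.6, 78.9 and 42.4 CPM in notum-1 libraries and 19.6, 21.6, 32.6 and 27.8 CPM in WT libraries. It rose by 1.94, 1.77 and 1.28 with no overlap in any treatment. Hmgb2a, a chromatin gene of dividing cells, fell by 0.86 in DMH1 and by 1.07 in SU5402. Without scaling, the G2/M count in notum-1 turned to 1 higher and 6 lower, so its direction there depends on the scaling.

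Oxygen response and glycolysis genes were mostly higher in both small-molecule groups. Of 24 oxygen response and glycolysis genes, 15 rose and 4 fell in DMH1, 14 rose and 3 fell in SU5402, and 1 rose and 7 fell in notum-1. The medians were 1.51, 1.43 and -0.42. The called share was above that of all genes in DMH1 and SU5402 and near it in notum-1. Ldha, the lactate dehydrogenase gene, was 83.1, 67.3, 136 and 107 CPM in DMH1 libraries, 116, 75.2, 133 and 105 CPM in SU5402 libraries, 4.66, 4.34, 3.20 and 4.01 CPM in notum-1 libraries and 7.56, 5.13, 6.73 and 11.8 CPM in WT libraries. It rose by 3.60 and 3.73 in DMH1 and SU5402 and fell by 1.01 in notum-1 (edgeR adjusted p = 2.4e-08, 9.89e-09 and 0.0173). The ldha call in notum-1 was lost without WT DJ2 or notum-1 DJ1 (-0.91 to -0.71). Eno1a, an enolase gene, rose by 6.39 and 6.66 in DMH1 and SU5402. In WT it was 0.472, 0, 1.01 and 0.966 CPM. Egln3 and pfkfb3, which hypoxia-inducible factors induce, rose by 4.07 and 4.198 in DMH1 and by 4.31 and 4.32 in SU5402. The 4 hsp70 heat-shock copies were summed, because reads may be split between them. Their sum was 22.2, 34.3, 9.21 and 12.97 CPM in DMH1 libraries, 8.90, 18.8, 31.5 and 11.1 CPM in SU5402 libraries, 1433, 676, 1595 and 459.6 CPM in notum-1 libraries and 1499.8, 1551, 1359.7 and 833 CPM in WT libraries. The notum-1 and WT libraries were thus both high, and the DMH1 and SU5402 libraries both low. Of 17 heat-shock genes, 3 were higher and 10 lower in DMH1, 1 higher and 11 lower in SU5402, and 2 higher and 3 lower in notum-1. The called share was above that of all genes in DMH1 and SU5402 and under it in notum-1. Mdm2, a target and inhibitor of p53, fell by 1.32, 1.33 and 0.92, and cdkn1a, a p53 target that arrests the cell cycle, fell by 3.35 in DMH1 and by 2.78 in SU5402 (WT level 7.11 ± 1.02 CPM). Of 11 p53 response genes, 0 rose and 7 fell in DMH1, 2 rose and 6 fell in SU5402, and 0 rose and 6 fell in notum-1. Their called share was above that of all genes in each treatment, in a list of only 11. Median mitochondrial percents, as given above, were above WT in DMH1 and SU5402. In notum-1 they were 1.1 to 1.43, overlapping WT only through WT library MG2 and under the other WT libraries. The part of RNA quality in these lists was not tested.

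Adhesion and guidance genes, 28 of them tested, had 9 higher and 3 lower in DMH1, 10 higher and 2 lower in SU5402, and 2 higher and 6 lower in notum-1. The called shares were near those of all genes in DMH1 and SU5402 and under that of all genes in notum-1. The cadherin genes cdh6 and cdh11 rose in all 3 treatments. Cdh6 was 166, 174, 186 and 178 CPM in DMH1 libraries, 236, 241, 256 and 159.8 CPM in SU5402 libraries, 182, 123, 169.7 and 108 CPM in notum-1 libraries and 80.3, 78.7, 81.8 and 79.4 CPM in WT libraries. No treated library overlapped WT, and the log2 fold changes were 1.14, 1.48 and 0.86 (edgeR adjusted p = 1.9e-05, 1.1e-06 and 0.000606). The axon guidance receptor gene robo3 rose by 0.96 in DMH1 and 1.05 in SU5402. The ephrin gene efna1b fell in all 3 treatments, by 2.02, 0.56 and 0.64, but no WT library had an efna1b UMI left once estimated free RNA was removed, so no direction is drawn from it. The fibronectin gene fn1b fell by 2.03 in notum-1, with 52.5, 29.9, 22.2 and 16.6 CPM in notum-1 libraries and 133, 118, 128 and 111 CPM in WT libraries. Fn1b is also high in mesoderm, whose markers fell in the same libraries, and their part in its fall was not tested.

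The 2 inhibitors were also compared with each other, in the same fit of all 16 libraries. The WT and notum-1 libraries thus enter through the filter, the scaling and the estimate of spread. DMH1 and SU5402 differed for 83 of 10861 genes (0.764%), 38 higher (0.35%) and 45 lower (0.414%) in DMH1. The groups did not overlap for 9.89% of genes. This count rests on the libraries. Without SU5402 replicate 4 it was 2473, without notum-1 library DJ2 it was 332, and without SU5402 replicates 1 and 2 it was 72. DESeq2 called 378 genes. BMP response genes were lower in DMH1 for 7 of 21 and higher for 0, and FGF response genes higher for 6 of 13 and lower for 0. The largest of these differences was that of szl, at -6.54 (SE 0.66, edgeR adjusted p = 0.000275). Id3, msx2b and vent were lower in DMH1 by 2.52, 2.65 and 2.37 on the log2 scale, and ier2a, spry1, dusp6 and spry4 higher by 2.54, 2.03, 1.59 and 1.33. The G1 cyclin gene ccnd2a was 121, 113, 137 and 152 CPM in DMH1 libraries, 27.3, 37.9, 23.8 and 45.2 CPM in SU5402 libraries, 110.1, 85.0, 159.6 and 117 CPM in notum-1 libraries and 77.0, 69.8, 68.0 and 81.0 CPM in WT libraries. It was 1.94 higher in DMH1 than in SU5402 (SE 0.20, adjusted p = 3.66e-05). Among neural and axial genes, hes6 (1.22), cdx4 (0.79) and hoxb7a (0.83) were higher in DMH1, and sox2 (-0.77), her6 (-0.998), olig3 (-0.88) and pax6a (-0.90) were lower in DMH1. Without DMH1 library DMH0 the calls of cdx4 (0.78), hoxb7a (0.79), her6 (-0.95), olig3 (-0.85) and pax6a (-0.86) were lost, some of them without other libraries too, and that of sox2 (-0.71) without SU5402 replicates 1 and 2. Oxygen response, S phase and G2/M genes had 0 edgeR calls between the 2 groups. At an unadjusted p under 0.05 they had 1, 7 and 4 genes, and DESeq2 called 0, 2 and 0. Pcna differed by 0.36 (SE 0.17) and ldha by -0.13 (SE 0.21).

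Whether a change was particular to posterior neuronal cells was tested against NMP, anterior neuronal and dorsal neuronal cells of the same libraries, by limma on the difference of log2 CPM between the 2 classes. Against NMP cells the change differed under DMH1 for 43 of 5845 genes (0.736%), under SU5402 for 44 (0.753%) and under notum-1 for 62 (1.06%). Against anterior neuronal cells it differed under DMH1 for 0 of 5824 genes (0%), under SU5402 for 4 (0.0687%) and under notum-1 for 10 (0.172%). Against dorsal neuronal cells it differed under DMH1 for 1 of 5945 genes (0.0168%), under SU5402 for 17 (0.286%) and under notum-1 for 64 (1.08%). For the count of 0 against anterior neuronal cells, 371 genes had an unadjusted p under 0.05 and edgeR with a library block called 19. Most of the changes above were thus not shown to differ from those of the neighbouring classes. A p that missed the threshold does not show that the classes changed alike. In simulated data this test recovered only 38 of 97 differences of 1 on the log2 scale. The counts moved with single libraries. Against NMP cells, leaving out 1 library gave 17 to 64 genes for DMH1, 21 to 49 for SU5402 and 19 to 76 for notum-1, with the lowest counts without WT library MG2, SU5402 replicate 4 and WT library MG1. Of the differences named below, 29 were followed when 1 library was left out, and 20 to 27 of these kept their call.

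Nrarpa, the second nrarp feedback gene of the Notch pathway, differed from NMP cells in all 3 treatments, and these 3 calls held without any 1 library. Its change was more positive in posterior neuronal than in NMP cells by 0.65 under DMH1, 0.77 under SU5402 and 0.58 under notum-1 on the log2 scale (SE 0.08 each, limma adjusted p = 0.00221, 0.000442 and 0.0041). On the CPM of each class's own total, it averaged 109.8 ± 13.6 CPM in DMH1, 177 ± 38.1 CPM in SU5402, 56.0 ± 13.4 CPM in notum-1 and 95.6 ± 5.09 CPM in WT posterior neuronal cells. In NMP cells on that scale it averaged 102 ± 10.0 CPM in DMH1, 147 ± 30.4 CPM in SU5402, 54.8 ± 9.36 CPM in notum-1 and 140.8 ± 10.1 CPM in WT. It also changed more positively than in anterior neuronal cells in SU5402 (0.52) and than in dorsal neuronal cells in SU5402 (0.51) and notum-1 (0.78). Its call against dorsal neuronal cells in SU5402 was lost whichever of the 16 libraries was left out (0.47 to 0.54).

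Of the 43 genes called against NMP cells in DMH1, 28 changed more positively and 15 more negatively. The more negative ones with the smallest adjusted p were rasl11b (-2.37), metrn (-0.81), tp53inp2 (-0.98) and flrt3 (-1.26). In DMH1 the BMP response genes id2a, bmp4, id1 and smad7 changed less negatively than in NMP cells, by 1.62, 1.55, 1.05 and 1.32. Id2a averaged 9.42 ± 2.57 CPM in DMH1 and 23.8 ± 4.60 CPM in WT posterior neuronal cells, and 3.32 ± 1.51 CPM in DMH1 and 26.9 ± 4.36 CPM in WT NMP cells. Once estimated free RNA was removed, WT posterior neuronal sums kept 5, 29, 5 and 0 id2a UMIs, and its change in DMH1 against WT turned positive. The neural tube genes olig4 and pax6b changed more positively than in NMP cells, by 2.44 and 2.15. In SU5402, id1 (1.19), hoxa13b (1.23), hoxb3a (1.17), nkx1.2la (1.81) and dusp6 (0.65) changed more positively than in NMP cells, and nog2, a BMP antagonist gene, more negatively (-1.85). In notum-1, mdka (1.83), meis1b (2.15), dkk1b (2.82) and crabp2b (1.74) changed more positively than in NMP cells, and fn1b (-1.199) and hoxd13a (-1.34) more negatively. Mdka, a secreted growth factor gene of the neural tube, averaged 140.3 ± 48.6 CPM in notum-1 and 126 ± 16.3 CPM in WT posterior neuronal cells, and 22.4 ± 8.72 CPM in notum-1 and 70.7 ± 2.71 CPM in WT NMP cells. Against anterior neuronal cells, dkk1b changed more negatively (-1.58) and cdh6 more positively (0.77) in notum-1, and lmo3 more positively (1.21) in SU5402. Gli1 (1.53) and robo3 (0.88) changed more positively than in dorsal neuronal cells in SU5402. Without WT library DJ1 the calls were lost of smad7 (1.24) and nog2 (-1.63) against NMP cells, of nrarpa (0.53), lmo3 (1.18), dkk1b (-1.69) and cdh6 (0.79) against anterior neuronal cells, and of nrarpa in SU5402 (0.53), gli1 (1.62) and robo3 (0.83) against dorsal neuronal cells, and most of these were also lost without other single libraries. Against NMP cells, crabp2b was not called without WT MG1 (1.62), dusp6 without SU5402 replicate 4 (0.64), and hoxa13b without SU5402 replicates 1 and 2 (1.16).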

How the data were processed

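The deposited matrix holds UMI counts per gene and cell for 16 libraries, made by the authors with Cell Ranger on GRCz11, per the submitters' processing notes, which give no versions. The mitochondrial percent per cell is the value the authors deposited. Cell classes and libraries came from the authors' deposited cell table. The labels matched 4 libraries by name and 12 by group only. How doublets were treated is not given in the sources used here, and no doublet caller was run. Filters on cells were those already in the deposited table.

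Counts were summed over the posterior neuronal cells of each library and tested with edgeR 4.0.16 (quasi-likelihood, robust, TMM scaling, filterByExpr) in R 4.3.3. Class differences were tested with limma 3.58.1 on log2 CPM with a prior count of 2, over genes whose mean reached 10 CPM. Adjusted p-values are Benjamini-Hochberg over all genes tested. Levels in the comparisons with WT are TMM-scaled CPM, and the WT description uses CPM of the class total. Shares are the expected shares after thinning to 2000 UMIs. WT genes were named by the ratio of their mean to the mean of 20 other classes, with 5 CPM added to both and at least 50 CPM in the class. List genes were named by the smallest adjusted p, at most 6 per list and treatment. Some genes are in more than 1 list, such as sp5a and cdx4 in the tailbud and Wnt response lists. Both tests were checked on simulated data before use. At a true log2 change of 1, edgeR recovered 89 of 100 genes and limma on class differences 38 of 97. At a log2 change of 2 they recovered 100 of 100 and 94 of 95. Members and lists were chosen with earlier results of these data known, and several genes, among them her6, hoxb7a, rarga and ccnd2a, were named after their values were seen. Alternatives were another scaling, DESeq2 1.42.0, no filter, fewer libraries, thinned sums, common cell limits, removal of estimated free RNA and leaving out each library. WT and notum-1 library names share endings that the labels do not explain. No genome of this build was used, so no sequence or coordinate is given. Some members of the gene lists are counted but not reported singly here.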

Additional observations from a re-analysis of the deposited data

Results flagged for a closer look

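In 7 of 133 groups of 4 library values that were examined, 1 library lay far from the other 3. Chance flags about 1 in 20 such groups. The library DJ2 was apart in WT for cdx4 at 3043 CPM, and MG1 in WT for dkk1b at 67.3 CPM. In DMH1, DMH3 was apart for elavl3 at 136 CPM and DMH0 for sox2 at 133 CPM. In notum-1, DJ2 was apart for hoxb7a at 1117 CPM and for notch3 at 104 CPM, and MG1 for szl at 14.0 CPM.

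The 29 gene and class pairs below are a selection from the changes that differed between posterior neuronal cells and another class. Each passed the limma test of the difference itself, and the full counts are given above. Against dorsal neuronal cells in notum-1, for example, 64 genes were called, 45 more positive and 19 more negative, and only nrarpa is listed. Calua (1.18), apoeb (-1.17) and cdx1a (-0.998) are among those left out. Against NMP cells in DMH1 the differences on the log2 scale were 0.65 for nrarpa, 1.62 for id2a, 1.55 for bmp4, 1.05 for id1, 1.32 for smad7, 2.44 for olig4 and 2.15 for pax6b. Against NMP cells in SU5402 they were 0.77 for nrarpa, 1.19 for id1, 1.23 for hoxa13b, 1.17 for hoxb3a, 1.81 for nkx1.2la, 0.65 for dusp6 and -1.85 for nog2. Against NMP cells in notum-1 they were 0.58 for nrarpa, 1.83 for mdka, 2.15 for meis1b, 2.82 for dkk1b, 1.74 for crabp2b, -1.199 for fn1b and -1.34 for hoxd13a. Against anterior neuronal cells they were 0.52 for nrarpa and 1.21 for lmo3 in SU5402, and -1.58 for dkk1b and 0.77 for cdh6 in notum-1. Against dorsal neuronal cells they were 0.51 for nrarpa, 1.53 for gli1 and 0.88 for robo3 in SU5402, and 0.78 for nrarpa in notum-1.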

How the results depend on the processing

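The counts of genes changed against WT stayed within 1.5 times under RLE scaling, DESeq2, no filter, only the 8 libraries compared (6112 in DMH1, 4200 in SU5402, 3390 in notum-1) and leaving out each library (3922 to 5179 in DMH1, 3799 to 4945 in SU5402, 2844 to 4259 in notum-1). Thinned sums gave 2753 in DMH1 and 1822 in notum-1. Cells within common limits gave 2699 in SU5402 and 2254 in notum-1, and removing estimated free RNA gave 2424 in notum-1. The common limits were at least 1501 genes and at most 2.98 mitochondrial percent. SU5402 replicates 1 and 2 kept 7 and 25 cells, under the minimum of 30, and were left out of that fit. DMH2 kept 70 cells. An effect of the limits and of the libraries left out cannot be told apart there. DMH1 against SU5402 gave 378 with DESeq2, 34 with common limits, 27 with free RNA removed, 180 without scaling, 141 with thinned sums, and 41 to 2473 when 1 library was left out; the cause was not tested. edgeR with a library block called 172, 113 and 171 genes against NMP cells in DMH1, SU5402 and notum-1, 19, 30 and 50 against anterior neuronal cells, and 185, 187 and 199 against dorsal neuronal cells. With at least 50 CPM, fewer genes were tested and 3, 10 and 17 were called against anterior and 14, 26 and 111 against dorsal neuronal cells. Without SU5402 replicates 1 and 2, chosen after seeing the data, the counts were 21 against NMP cells in SU5402, 1 against anterior neuronal cells in DMH1, and 2, 5 and 114 against dorsal neuronal cells. Leaving out 1 library gave 17 to 64, 21 to 49 and 19 to 76 against NMP cells, 0 to 1, 0 to 6 and 0 to 12 against anterior neuronal cells, and 0 to 2, 0 to 16 and 19 to 94 against dorsal neuronal cells.

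Removing estimated free RNA turned dlc to 6.34 in DMH1 and 6.88 in notum-1, efna1b to 5.78, 7.94 and 7.25 in DMH1, SU5402 and notum-1, her6 to 4.76 and id2a to 0.81 in DMH1, id2a to 1.44 and meis1b to 0.22 in SU5402, and tbx16 to 7.25 and tcf7l1a to 0.22 in notum-1. Dlc, efna1b, her6 and tbx16 then had 0 UMIs in every WT library, so their fitted values depend on the prior count and give no direction. Common limits turned id2a to 0.25 in SU5402 and olig2 to 0.25 in DMH1, and no scaling turned hoxb9a to -0.12 in notum-1. Among changes of named genes, removing free RNA ended 36 calls, common limits 50, thinned sums 28, no scaling 21, no filter 12, DESeq2 3, RLE scaling 2 and a left-out library 2 to 26. A fit with a replicate block by shared name ending called 3357 genes in notum-1. Deviations from the group mean had correlations of 0.021, 0.157, 0.06 and 0.176 between same-ending libraries. Between WT and notum-1 libraries of unlike ending that were both MG or both DJ they were 0.038, 0.138, -0.065 and 0.149. Between an MG and a DJ library they were -0.192 to 0.049. Epidermis markers over all cells were 1546, 1520, 3416 and 3530 CPM in WT MG1, MG2, DJ1 and DJ2. In notum-1 they were 865, 725, 2143 and 1872 CPM in that order. The main fit did not pair libraries by ending, and whether MG and DJ mark a structure shared by WT and notum-1 was not tested. No such fit was made for DMH1 or SU5402, whose library names share no such ending with WT.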
